A study of Mus musculus with 18 samples.

Results

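The 10 transcripts described here stood far above their usual level in a single library of mouse fat. The 4 duct members, Akr1b7, Crisp1, Spink8 and Ptgs2, encode proteins of the epithelium of the vas deferens and epididymis, and the 6 muscle members, Myh11, Cnn1, Des, Tagln, Actg2 and Acta2, encode proteins of the smooth muscle contractile apparatus. They were found by symbol among 16452 counted genes, and all 10 were counted. They had been picked because of their level in the library called control 3, so that level is given as a description and carries no test. RNA sequencing was performed on eWAT, the fat pad that lies against the epididymis, from male C57BL/6 mice of genotype WT and of a generation labelled Fm. The mice descend from zygotes microinjected with a let-7 microRNA or a negative control, and their treatment labels read IVF_Let7e (6 libraries), IVF_Let7d (6 libraries) and IVF_NegativeControl (5 libraries, called control). A control replicate 5 is also described and is not analysed here. All groups shared the diet labelled LFD from week 6 to week 15 after chow, and an age label of 24 weeks. The sources do not say whether a library came from 1 mouse or from pooled tissue, nor which mice shared a sire, so p-values measure the spread between these samples, which may be technical. The series title places the work in paternal mitochondrial dysfunction and its inheritance.

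The vas deferens carries sperm from the epididymis and is a tube of secretory epithelium inside a thick coat of smooth muscle, whereas most smooth muscle in a fat pad lies in the walls of its blood vessels. Smooth muscle contracts when myosin, switched on by myosin light chain kinase, pulls on actin filaments. Transcription of contractile genes is driven by serum response factor together with myocardin, through DNA elements called CArG boxes, and secretory genes of the male ducts are largely kept on by androgens. MicroRNAs of the let-7 family lower messenger RNAs that pair with their seed, the bases counted 2 to 8 from the 5′ end.

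The mature sequences of the microRNAs named in the group labels are shown to define the treatments, 5′ to 3′ and with the seed in capitals, as RefSeq gives them (GRCm38.p6). The let-7e gene copy lies at chr17:17830366-17830387 on the plus strand and the let-7d copy at chr13:48536078-48536099 on the minus strand.
mmu-let-7e-5p: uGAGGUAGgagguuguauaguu
mmu-let-7d-5p: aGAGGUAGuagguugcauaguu
The seeds of let-7e and let-7d are identical. Over their 22 bases they differ at 3 positions, written with the let-7e base first and counted from the 5′ end as U1A, G9U and U16C. A match to the seed, CTACCTC on the sense strand, was found in the longest annotated 3′ UTR of 1 of the 10 genes, Cnn1, against 1474 of 14162 protein-coding genes (10.4%). A match is a description of letters and not a site of action.

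Promoters are shown for 1 duct and 1 muscle gene as examples of classes that stood high together, each as the 250 bases before the RefSeq start (GRCm38.p6), with motif matches in capitals. RefSeq entries were found for 6 of the 10 genes. Akr1b7 reads from chr6:34412112-34412361 on the plus strand and Acta2 from chr19:34255374-34255623 on the minus strand. Most of the Acta2 window and the end of the Akr1b7 window lie inside the gene intervals given below, which come from GENCODE M21. Motif positions therefore depend on the start chosen.
Akr1b7: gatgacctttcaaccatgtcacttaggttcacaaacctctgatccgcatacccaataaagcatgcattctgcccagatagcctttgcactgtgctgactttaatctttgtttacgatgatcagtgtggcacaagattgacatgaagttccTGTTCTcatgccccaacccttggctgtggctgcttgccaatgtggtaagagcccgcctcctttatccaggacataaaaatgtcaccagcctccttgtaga
Acta2: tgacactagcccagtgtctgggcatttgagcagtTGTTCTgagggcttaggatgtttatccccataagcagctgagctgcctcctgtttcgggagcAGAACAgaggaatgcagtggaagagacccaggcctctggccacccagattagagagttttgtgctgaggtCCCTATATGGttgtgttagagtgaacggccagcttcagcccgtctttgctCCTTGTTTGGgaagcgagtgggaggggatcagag
The motifs searched on both strands were TGTTCT, a half-site of steroid hormone receptors, and a CArG-like box in which at most 1 of the 6 middle letters was neither A nor T. Akr1b7 held 1 TGTTCT, at position -100 from the start. Acta2 held 2 CArG-like boxes at -84 and -34 and 2 matches to TGTTCT or its reverse complement at -216 and -154. Crisp1 held 1 CArG-like box at -53, and Des, Ptgs2 and Cnn1 held neither motif in this window. The 2 motifs did not overlap in any of the 6 sequences. Among 32851 promoters of this length, 8.59% held a CArG-like box and 16.1% held TGTTCT.

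Library totals ran from 12717365 to 28972306 counts, and control 3 held 28523424. The fat itself was present in every library: 12 adipocyte genes summed to 44041 CPM (counts relative to the TMM-scaled library total) in control 3 and to 36616 to 75703 CPM in the other 16 libraries. Libraries other than control 3 also stood apart. Control 6 summed to 2037 CPM over 12 spermatid genes, against a median of 48.4 CPM. Let-7d 1 summed to 621 CPM over 9 genes of absorptive and ciliated epithelium, against a median of 7.01 CPM, and let-7d 5 summed to 269 CPM over the same genes. Over 13 genes of duct epithelium let-7d 5 summed to 213 CPM and let-7d 1 to 524 CPM, against a median of 42.1 CPM. The 4 libraries let-7e 1 and 2 and let-7d 1 and 2 carry all-digit identifiers, a series with no control in it, and the fits include that series as a term.

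In control 3 the most abundant duct message, Akr1b7 at 14043 CPM, exceeded Fabp4, the fatty acid binding protein of fat cells, at 10580 CPM. The 4 duct members took 1.95% of its counts and the 6 muscle members 1.41%. Elsewhere the duct members took at most 0.00309% (let-7e 1) and the muscle members 0.0112% (control 4) to 0.0634% (let-7d 5). In whole tissue, more cells of a type and more RNA per cell cannot be told apart. Per kilobase of exon, a scale on which genes can be compared, Akr1b7 led in control 3 at 10963 CPM per kb, and it ranked 3 among all genes by CPM. It was followed by Crisp1 at 2067, Acta2 at 1554, Actg2 at 949, Myh11 at 685, Spink8 at 602, Cnn1 at 599.7, Des at 387, Ptgs2 at 244 and Tagln at 87.2 CPM per kb. The order by median over the other 16 libraries was different, led by Acta2 at 78.8, Myh11 at 9.72 and Des at 9.64 CPM per kb, with the 4 duct members at 0.151 to 0.293.

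**Figure D1:**
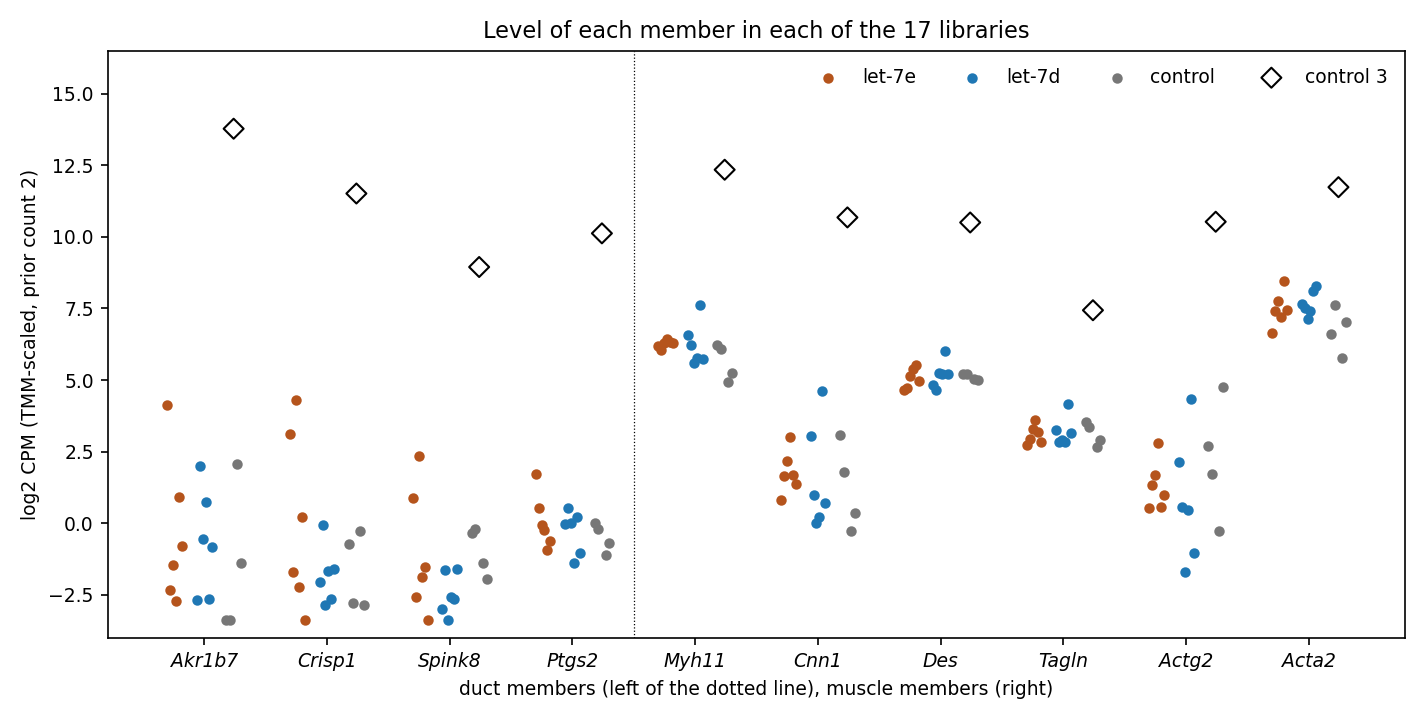
Log2 CPM (TMM scaling, prior count 2) of each of the 10 genes in each of the 17 libraries, with let-7e left of let-7d left of control and control 3 as an open diamond. Control 3 lies above every other library for all 10 genes, from 7.44 for Tagln upward, while the 3 groups overlap without it.

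Akr1b7 (ENSMUSG00000052131.7, chr6:34412334-34423142, plus strand) encodes an aldo-keto reductase first known as a major protein of the mouse vas deferens, with prostaglandin F synthase activity. It stood at 0.0578, 0.378 and 17.3 CPM (lowest, median and highest) in let-7e libraries and at 0.0586, 0.525 and 3.92 CPM in let-7d libraries. The control libraries held 0, 0, 14043, 4.13 and 0.286 CPM (controls 1, 2, 3, 4 and 6). Control 3 held 421352 counts of it, 99.8% of all its counts, and 813 times the level of let-7e 1, the next highest. Without control 3 the groups overlapped, and let-7e 1, control 4 and let-7d 2 held the most. Controls 1 and 2 had no count at all, which allows up to 0.172 and 0.144 CPM (3 counts). These floors, and the intervals given for ratios, cover counting error only.

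Crisp1 (ENSMUSG00000025431.4, chr17:40293758-40319207, minus strand) encodes a cysteine-rich secretory protein that coats sperm in the epididymis. Let-7e libraries held 0, 0.634 and 19.9 CPM and let-7d libraries 0.0419, 0.181 and 0.857 CPM (lowest, median, highest). Controls 1, 2, 3, 4 and 6 held 0.516, 0.0481, 2927, 0.725 and 0.0409 CPM. The level in control 3 was 147 times that of the next library, let-7e 3. Let-7e 3, let-7e 1 and let-7e 5, at 19.9, 8.60 and 1.06 CPM, stood above every let-7d library and every control but control 3, and the other 3 let-7e libraries overlapped both groups. Let-7e 5 did so by few counts, 25 against 19 in let-7d 2.

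Spink8 (ENSMUSG00000050074.12, chr9:109812280-109826633, plus strand) encodes a Kazal-type inhibitor of serine proteases. It stood at 0, 0.214 and 5.01 CPM in let-7e libraries and at 0, 0.0673 and 0.232 CPM in let-7d libraries. The control libraries (1, 2, 3, 4 and 6) held 0.687, 0.770, 494, 0.290 and 0.164 CPM. The order repeated that of Crisp1 at the top, with control 3 at 98.6 times the level of let-7e 3 and let-7e 1 next at 1.76 CPM. Outside these 3 libraries no library exceeded 0.770 CPM, and the groups overlapped.

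Ptgs2 (ENSMUSG00000032487.8, chr1:150100031-150108227, plus strand) encodes cyclooxygenase 2, the enzyme that starts prostaglandin synthesis, inducible in most tissues and constitutive in the vas deferens of the rat. Let-7e libraries held 0.423, 0.812 and 3.22 CPM and let-7d libraries 0.288, 0.900 and 1.35 CPM. Among controls 1, 2, 3, 4 and 6 it stood at 0.917, 0.770, 1116, 0.363 and 0.532 CPM. Control 3 stood 347 times above let-7e 1, the next library, and the remaining libraries of all groups lay together between 0.288 and 1.37 CPM. Of 7 measured genes of a list of other inducible inflammatory genes, none stood at least 4-fold over the median in control 3, with Egr1 at 22.2 CPM against a median of 17.1 CPM.

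Myh11 (ENSMUSG00000018830.10, chr16:14194535-14291372, minus strand) encodes the myosin heavy chain of smooth muscle. It stood at 66.6, 78.1 and 85.4 CPM (lowest, median, highest) in let-7e libraries and at 48.4, 64.7 and 199 CPM in let-7d libraries. In the controls (1, 2, 3, 4 and 6) the values were 74.5, 67.8, 5203, 30.2 and 38.3 CPM. Control 3 was 26.2 times above the next library, let-7d 5, and let-7d 1 followed at 95.7 CPM. Let-7e libraries were narrowly spread, and the groups overlapped without control 3.

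Cnn1 (ENSMUSG00000001349.5, chr9:22099216-22109630, plus strand) encodes calponin 1, which binds actin and slows the myosin motor in differentiated smooth muscle. Let-7e libraries held 1.68, 3.07 and 8.04 CPM and let-7d libraries 0.922, 1.72 and 24.4 CPM. Among controls 1, 2, 3, 4 and 6 it stood at 8.48, 3.37, 1641, 0.725 and 1.19 CPM. Control 3 stood 67.2 times above let-7d 5, and the other 15 libraries lay at or under 8.48 CPM with the groups overlapping.

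Actg2 (ENSMUSG00000059430.14, chr6:83512905-83536265, minus strand) encodes the gamma actin of visceral smooth muscle, as in gut, bladder and genital ducts. It stood at 1.37, 2.16 and 6.88 CPM in let-7e libraries and at 0.210, 1.35 and 19.97 CPM in let-7d libraries. The control libraries (1, 2, 3, 4 and 6) held 6.36, 3.22, 1477, 0.725 and 27.2 CPM. Control 6, the library with spermatid transcripts, ranked next after control 3, which was 54.4 times above it, and let-7d 5 came after control 6. The lowest and highest of the libraries other than control 3 were 130 times apart, the widest range among the muscle members, and the groups overlapped.

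Acta2 (ENSMUSG00000035783.9, chr19:34241090-34255590, minus strand) encodes the alpha actin of vascular smooth muscle, also made by pericytes and myofibroblasts. Let-7e libraries held 100.2, 172 and 355 CPM and let-7d libraries 141, 191 and 313 CPM. Controls 1, 2, 3, 4 and 6 held 97.9, 197, 3412, 54.0 and 130.1 CPM. Its excess in control 3 was the smallest of the 10, at 9.63 times let-7e 5, and it was the most abundant member in the other libraries per length. Without control 3 the groups overlapped, although the 3 lowest libraries were controls 4 and 1 and let-7e 1.

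Des (ENSMUSG00000026208.9, chr1:75360329-75368579, plus strand) encodes desmin, the intermediate filament of muscle. Let-7e libraries held 25.2, 33.4 and 46.3 CPM and let-7d libraries 25.2, 37.1 and 65.1 CPM. In the controls (1, 2, 3, 4 and 6) the values were 36.8, 37.0, 1451, 32.4 and 32.3 CPM. Apart from control 3, which lay 22.3 times above let-7d 5, the libraries fell within a 2.59-fold range, the narrowest of the 10, and the groups overlapped.

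Tagln (ENSMUSG00000032085.5, chr9:45929619-45936058, minus strand) encodes transgelin, an actin-binding protein and early marker of smooth muscle. It stood at 6.57, 8.23 and 11.97 CPM in let-7e libraries and at 6.99, 8.08 and 17.9 CPM in let-7d libraries. Controls 1, 2, 3, 4 and 6 held 11.46, 10.3, 173, 6.24 and 7.40 CPM. Control 3 was 9.68 times above let-7d 5, and the groups overlapped without it. Of its exonic bases, 62.4% overlap the antisense gene Gm48529 and 5.43% overlap Pcsk7 on the opposite strand, and the sources used here do not give the strandedness of counting, so its counts are uncertain. The same holds for 27.2% of Akr1b7, shared with a pseudogene on the opposite strand, and for 5.86% of Des. Stretches of 50 bases shared with other genes made up at most 2.52% of any member.

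The ratio of members within a library does not depend on library depth. Per length, Actg2 stood at 0.611 of Acta2 in control 3 (95% exact binomial interval 0.604 to 0.618), at 0.294 in control 6 (0.270 to 0.320) and at 0.102 in let-7d 5 (0.0909 to 0.114). In the other 14 libraries it lay between 0.00175 (let-7d 6) and 0.0916 (control 1). Cnn1 stood at 0.386 of Acta2 in control 3 and between 0.00397 (let-7d 6) and 0.0710 (let-7d 5) elsewhere. Control 3 and control 6 were thus the libraries with the highest Actg2 over Acta2, but Cnn1 did not follow in control 6, where it was 0.00732 of Acta2. Myh11 varied less, at 0.441 of Acta2 in control 3 against 0.0489 (let-7d 6) to 0.220 (control 1). Des over Acta2 was 0.249 in control 3, inside the range of the other libraries, which was 0.0696 (let-7d 6) to 0.351 (control 4).

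Among the duct members, ratios could be formed in libraries with at least 20 counts over the pair. Crisp1 per length stood at 0.189 of Akr1b7 in control 3 (0.187 to 0.190), at 0.450 in let-7e 1 (0.377 to 0.536) and at 0.538 in let-7e 5 (0.315 to 0.904). In let-7d 2 it was 0.198 (0.114 to 0.327) and in control 4 it was 0.159 (0.0723 to 0.314), intervals that hold the value of control 3. Let-7e 3 differed from all of them, with 365 counts of Crisp1, 92 of Spink8 and 5 of Akr1b7, a ratio of 66.0 (28.0 to 205). Spink8 over Crisp1 was 0.291 in control 3, 0.354 in let-7e 1 (0.245 to 0.499) and 0.435 in let-7e 3 (0.342 to 0.548). In let-7e 5 it was 0.414 (0.139 to 1.03) and in let-7d 2 it was 0.454 (0.132 to 1.26), while control 1, with 12 counts of Spink8 and 9 of Crisp1, stood apart at 2.30 (0.889 to 6.18). The intervals of let-7e 1, let-7e 5 and let-7d 2 hold the value of control 3, and those of let-7e 3 and control 1 lie above it. Crisp1 and Spink8 were both higher in let-7e 3 than in any library but control 3, while Akr1b7 in let-7e 3 stood at 0.272 CPM. Ptgs2 over Akr1b7 was 0.0222 in control 3 (0.0220 to 0.0225) and varied widely elsewhere. It was 0.0245 in control 4 (0.00767 to 0.0607), an interval that holds the value of control 3, and 0.0521 in let-7e 1 (0.0400 to 0.0670). In the other 8 libraries with enough counts it lay between 0.0509 (let-7d 4) and 4.20 (let-7d 1, 30 counts of Ptgs2 and 2 of Akr1b7).

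**Figure D2:**
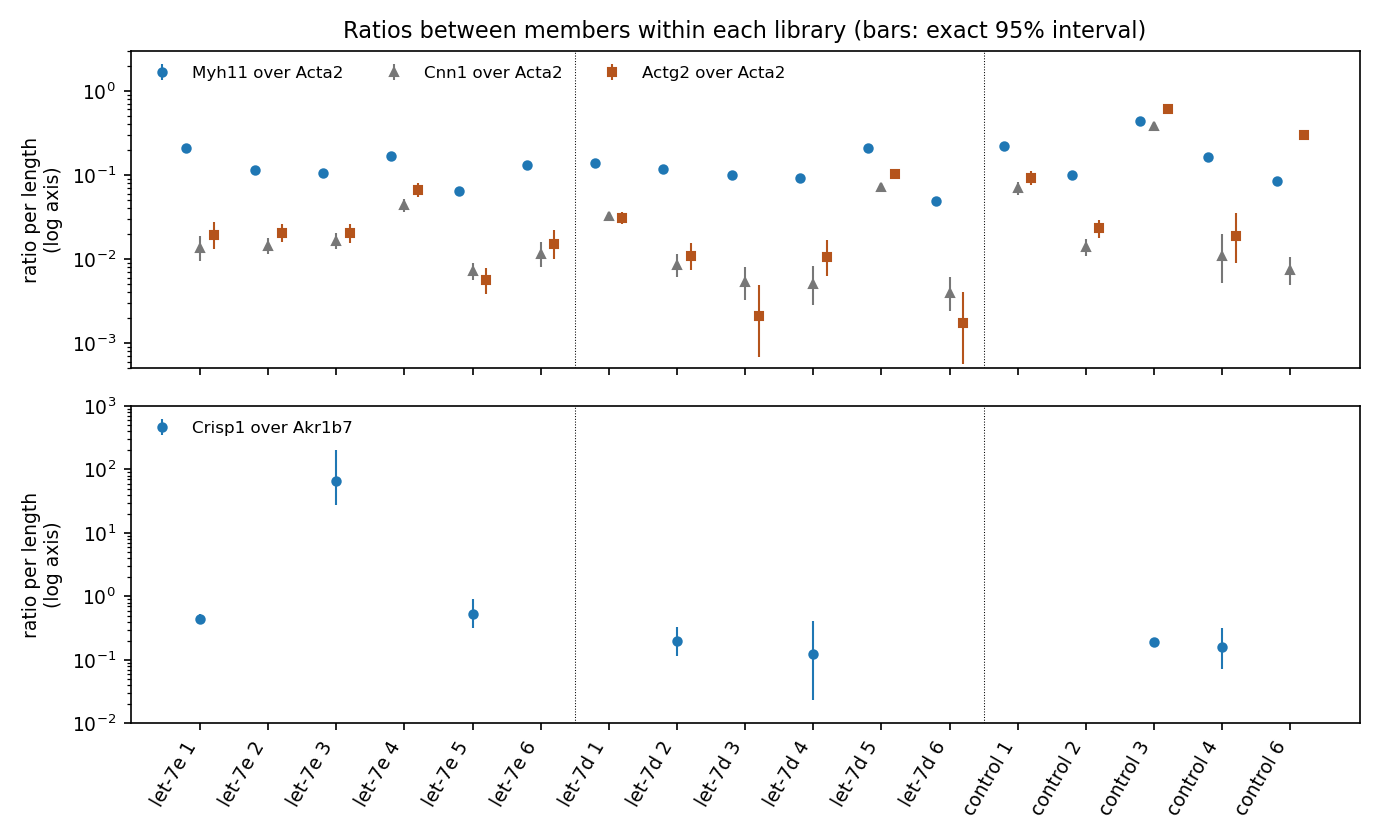
Ratios per length between members in each library on log axes, with exact 95% intervals, let-7e, let-7d and control from left to right. Actg2 over Acta2 is highest in control 3 at 0.611, followed by control 6 at 0.294. Crisp1 over Akr1b7 is 66.0 in let-7e 3 and under 1 in the other libraries shown.

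Duct and muscle members stood high together in control 3 and nowhere else to a like degree. The mean log2 CPM of the duct members was 11.09 in control 3, 2.47 in let-7e 1 and 1.30 in let-7e 3, and between -2.04 (let-7e 6) and 0.21 (let-7d 2) in the rest. That of the muscle members was 10.54 in control 3, 5.81 in let-7d 5 and between 2.97 (control 4) and 4.74 (let-7e 4) in the rest. Let-7d 5, the second highest for muscle and a library with the epithelial genes given above, had a duct mean of -1.94; the part of that epithelial RNA in its muscle level was not tested. Let-7e 1, the second highest for duct, had a muscle mean of 3.60. Among the libraries other than control 3, let-7d 5 was highest for 4 members, Myh11, Cnn1, Des and Tagln, and for 4.47% of all genes. Let-7e 1 was highest for Akr1b7 and Ptgs2 (4.94% of all genes), let-7e 3 for Crisp1 and Spink8 (2.42%), control 6 for Actg2 (13.9%) and let-7e 5 for Acta2 (2.49%). These shares are descriptions and carry no test.

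**Figure D3:**
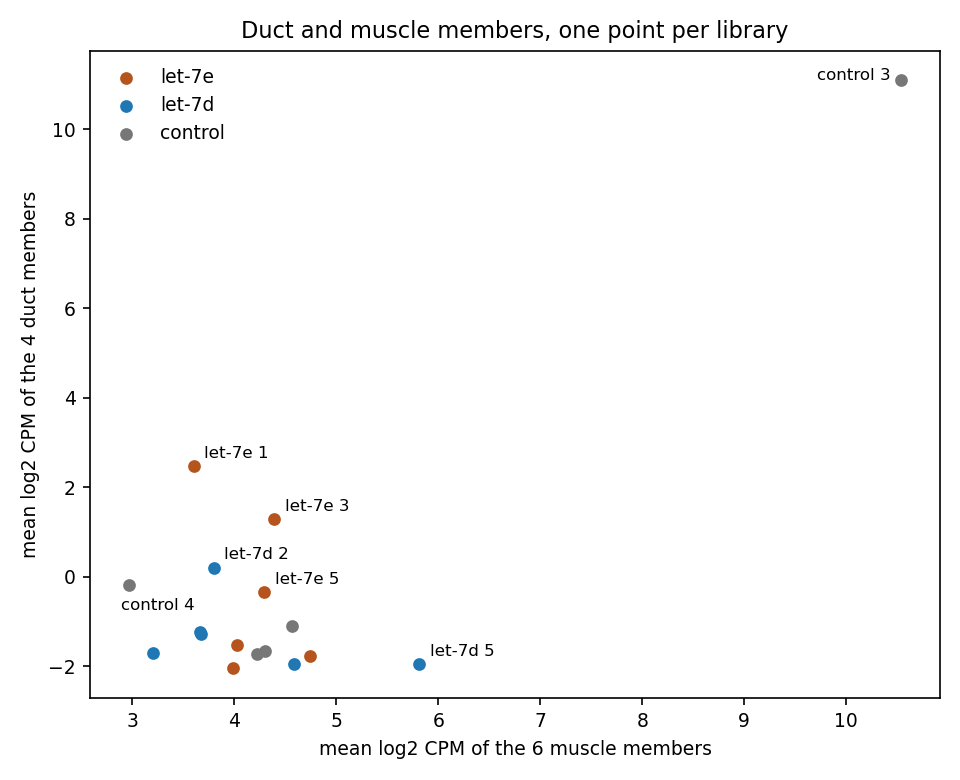
Mean log2 CPM of the 4 duct members (vertical axis) against that of the 6 muscle members (horizontal axis), with 1 point for each of the 17 libraries coloured by group. Control 3 lies alone at 11.09 and 10.54, let-7e 1 and let-7e 3 are next on the duct axis, and let-7d 5 is next on the muscle axis.

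Around the members, 16 lists of related genes, 2 of them the classes themselves, were set out to describe control 3. A gene counts below as high if control 3 was at least 4-fold over the median of the other 16 libraries and above the highest of them. By that measure 10 of 10 members were high, a count that the choice of members fixes, where 529 of 16452 genes were (3.22%), and 67 genes were low by the mirrored measure (0.407%). The median log2 ratio of control 3 to the others was -0.01 over all genes.

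Other contractile genes of smooth muscle stood high with the members: 17 of 24 measured were high, at a median log2 ratio of 3.08. Mylk, the kinase that switches on smooth muscle myosin, stood at 3332 CPM in control 3 and 188 CPM as the median of the others. Flna, filamin A, which crosslinks actin, stood at 2502 CPM against a median of 482 CPM. Csrp1, an actin-associated LIM protein, stood at 2035 against 192 CPM, and Tpm2, a tropomyosin, at 1830 against 26.6 CPM. Genes of vessel mural cells, the pericytes and muscle cells of small vessels, did not do so: 0 of 10 were high, and their summed level was 946 CPM in control 3 against 997 CPM (control 1) to 1687 CPM (let-7e 6) in the others. Mcam stood at 406 CPM in control 3 against a median of 629 CPM, and Rgs5, a pericyte marker, at 199.7 against 347 CPM. Mcam and Rgs5 made up most of the sum in control 3. Kcnj8 alone went the other way, at 49.2 CPM against a median of 30.3 CPM and 48.6 CPM in the highest other library. Abcc9, at 52.2 against 52.8 CPM, and Cspg4, at 83.5 against 86.7 CPM, lay close to the median. Of striated muscle genes 1 of 6 measured was high, Acta1, an actin of skeletal muscle, at 251 CPM in control 3 against a median of 35.9 CPM. Myl1, a light chain of skeletal myosin, stood at 25.1 against 39.65 CPM.

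Epithelial genes of ducts were high in 9 of 13 measured, at a median log2 ratio of 4.76. Krt19 stood at 180 CPM in control 3 and 14.0 CPM as the median of the others, and Krt8, also a keratin of simple epithelium, at 126 against 3.78 CPM. Aqp9, a water and glycerol channel of the epididymis and vas deferens, stood at 98.2 CPM in control 3 against a median of 3.54 CPM, and the junction gene Cldn3 at 94.8 against 1.12 CPM. Krt8 reached 126 CPM in let-7d 1 as well, where Akr1b7 had 2 counts. Of 30 further secretory genes of the epididymis and vas deferens only 4 were in the table, and 1 of them was high, Defb42, a beta-defensin, at 241 CPM in control 3 and 0.136 CPM as the median of the others. The other 3, Ptgds, Cuzd1 and Adam7, stood at 0.867, 0.333 and 0.233 CPM in control 3 and were highest in let-7d 1, at 75.0, 183 and 17.6 CPM. Genes of the seminal vesicle and prostate were high in 0 of 2 measured, spermatid genes in 0 of 12, with a sum of 67.3 CPM in control 3, and absorptive and ciliated epithelium in 0 of 9. For the last 2 lists the measure could hardly be met, because control 6 and let-7d 1 hold far more of these transcripts. Control 3 lay above the median of the others for 7 of the 12 and 6 of the 9 genes. Among them were Odf1 at 7.13 against 0.446 CPM and Cdh16 at 12.3 against 0.0786 CPM. The absorptive and ciliated genes summed to 27.1 CPM in control 3, against a median of 7.01 CPM.

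Ptgs2 and Akr1b7 belong to prostaglandin metabolism, and of the 23 other genes of that pathway that were measured, 5 were high in control 3. Slco2a1, which carries prostaglandins into cells, stood at 1097 CPM in control 3 and 20.7 CPM as the median of the others. Hpgd, which inactivates prostaglandins, stood at 609.5 CPM in control 3 against a median of 66.7 CPM. Ptges, which makes prostaglandin E2, stood at 555 against 89.2 CPM, and Ptgs1, cyclooxygenase 1, at 134 against 19.8 CPM. The fifth was Pla2g4a, the phospholipase that frees arachidonic acid, at 73.4 against 6.00 CPM, named after its value was seen. Over the whole pathway the median log2 ratio was -0.05, and none of its receptor genes was high. Of 5 measured androgen response genes 1 was high, Tmprss2, a membrane protease, at 32.9 CPM in control 3 against a median of 0.127 CPM.

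Adipocyte genes were high in 0 of 12, with Fabp4 at 10580 CPM in control 3 and 15482 CPM as the median of the others, and a median log2 ratio of -0.58. Of 6 mesothelial genes Krt19 alone was high, which is also on the epithelial list, and Upk3b stood at 15.3 CPM in control 3 against a median of 67.9 CPM. The part of any other cell type in the level of the members was not tested.

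**Figure D4:**
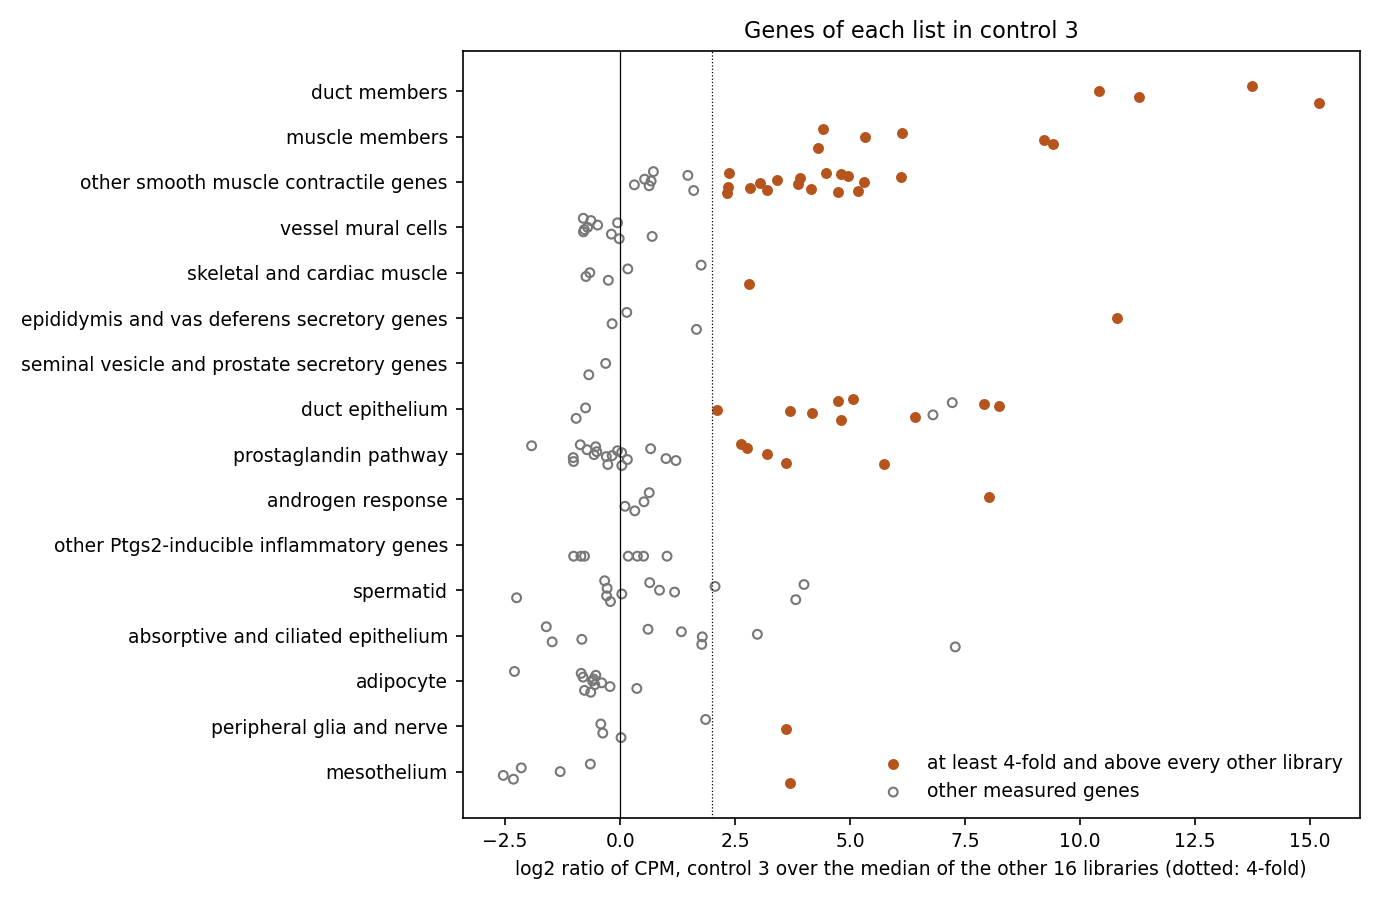
Log2 ratio of CPM in control 3 over the median of the other 16 libraries for each measured gene of 16 lists, filled where control 3 was at least 4-fold over that median and above every other library. Smooth muscle contractile genes lie mostly right of the dotted 4-fold line (17 of 24) and the 10 vessel mural cell genes lie left of it.

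Genes with the pattern most like a class were found by the SD, over libraries, of the log2 ratio of the gene to the mean log2 CPM of the class, where a smaller SD is more alike. For the duct members over 17 libraries these included Defb42 (SD 1.41), Ank1 (1.67), Gata3 (1.85) and Kif5c (1.94), against a median of 3.18 over 13170 genes, with control 3 among the points. Defb42 stood at 241 CPM there and at most 1.26 CPM elsewhere. A small SD from the duct mean asks mainly for a high level in control 3, the library on which the members were chosen. No ranking for the duct members without control 3 is given, so a likeness beyond that library is not shown. For the muscle members over 17 libraries they were Tpm2 (0.37), Sh3bgr (0.43), Slco2a1 (0.49), Adamts8 (0.54) and Asb2 (0.55), against a median of 1.72, and each of them had its second highest level in let-7d 5. Without control 3, over 16 libraries, they were Myl9 (0.31), Tpm2 (0.38), Pnck (0.40), Myom1 (0.42) and Cpe (0.43), against a median of 0.73. Of the members themselves, Tagln (0.36) and Myh11 (0.37) lay closest to the muscle mean over those 16 libraries, and Actg2 (1.27) lay farthest. Outside the members, the genes with the highest CPM in control 3 among those at least 16-fold over the median were Mylk, Tpm2, Myl9, Slco2a1 and Abcg2, a drug transporter, at 852 CPM in control 3 against a median of 34.2 CPM.

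Comparisons of the injected groups with the controls ask which transcripts differ in the fat when let-7 was injected into the zygotes behind the line. In these comparisons the size of the value of every member hung on control 3, and for part of the members the sign did too. With all 17 libraries the edgeR log2 fold changes for let-7e against control were -11.48 (SE 3.06) for Akr1b7, -8.15 (2.11) for Ptgs2, -6.92 (2.45) for Crisp1 and -6.23 (2.10) for Spink8. Among the muscle members they ran from -6.50 (SE 1.79) for Actg2 to -1.88 (SE 0.88) for Acta2. For let-7d against control they were -12.65 (SE 3.10) for Akr1b7, -11.16 (2.95) for Crisp1, -9.80 (2.55) for Spink8 and -8.61 (2.09) for Ptgs2, and from -5.81 (1.74) for Actg2 to -1.70 (0.90) for Acta2 in muscle. Since the members were chosen on control 3, these values are a description. Both comparisons share the control libraries. By edgeR's quasi-likelihood test with Benjamini-Hochberg adjustment 0 of 10 members passed in either, where 0 of 16452 genes did (0%). At an unadjusted p under 0.05 the counts over all genes were 1729 for let-7e (10.5%) and 1676 for let-7d (10.2%). DESeq2 called 15 and 10 genes and gave no adjusted p to any of the 10 members.

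Without control 3 the fold change turned positive for 8 of 10 members with let-7e and for 5 of 10 with let-7d, all of them muscle genes in the let-7d case. Actg2 stayed negative, at -1.46 for let-7e and -0.77 for let-7d, and Spink8 stayed at -2.13 for let-7d. Myh11 averaged 76.8 ± 6.34 CPM in let-7e libraries (SD, n = 6), 87.5 ± 57.3 CPM in let-7d libraries (SD, n = 6) and 52.7 ± 21.7 CPM in the other controls (SD, n = 4). Its log2 fold change against control was 0.60 (SE 0.38) for let-7e and 0.79 (SE 0.39) for let-7d. Acta2 averaged 194 ± 87.4 CPM, 214 ± 66.1 CPM and 120 ± 60.1 CPM in let-7e, let-7d and the other controls. Its log2 fold change was 0.83 (SE 0.36, edgeR adjusted p = 0.652) for let-7e and 1.01 (SE 0.37, edgeR adjusted p = 0.525) for let-7d. Crisp1 had 3.83 (SE 1.59, edgeR adjusted p = 0.623) for let-7e, with let-7e 3 and let-7e 1 far above the rest. It had -0.57 (SE 1.72) for let-7d. Des averaged 34.4 ± 8.37 CPM, 38.5 ± 14.0 CPM and 34.6 ± 2.62 CPM in the 3 groups, with 0.20 (SE 0.16) for let-7e and 0.35 (SE 0.16) for let-7d. Akr1b7 had -0.24 (SE 1.57) for let-7e and -1.03 (SE 1.501) for let-7d, and Ptgs2 had 0.23 (SE 0.46) for let-7e and -0.11 (SE 0.45) for let-7d.

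No member passed without control 3 either: the edgeR adjusted p of the 10 lay between 0.623 and 0.992 for let-7e and between 0.525 and 0.955 for let-7d, and 0 of 16452 genes passed in each comparison (0%). At an unadjusted p under 0.05 stood 2 of 10 members for let-7e, Crisp1 and Acta2, against 1194 of all genes (7.26%), and 2 of 10 for let-7d, Des and Acta2, against 1497 of all genes (9.1%). The median log2 fold change of the muscle members was 0.27 for let-7e and 0.57 for let-7d, and that of all genes -0.01 and -0.00. A p that misses the threshold does not show that the levels were alike: the SE of Cnn1 was 0.94 for let-7e and 0.97 for let-7d, close to the size of a 2-fold difference.

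**Figure D5:**
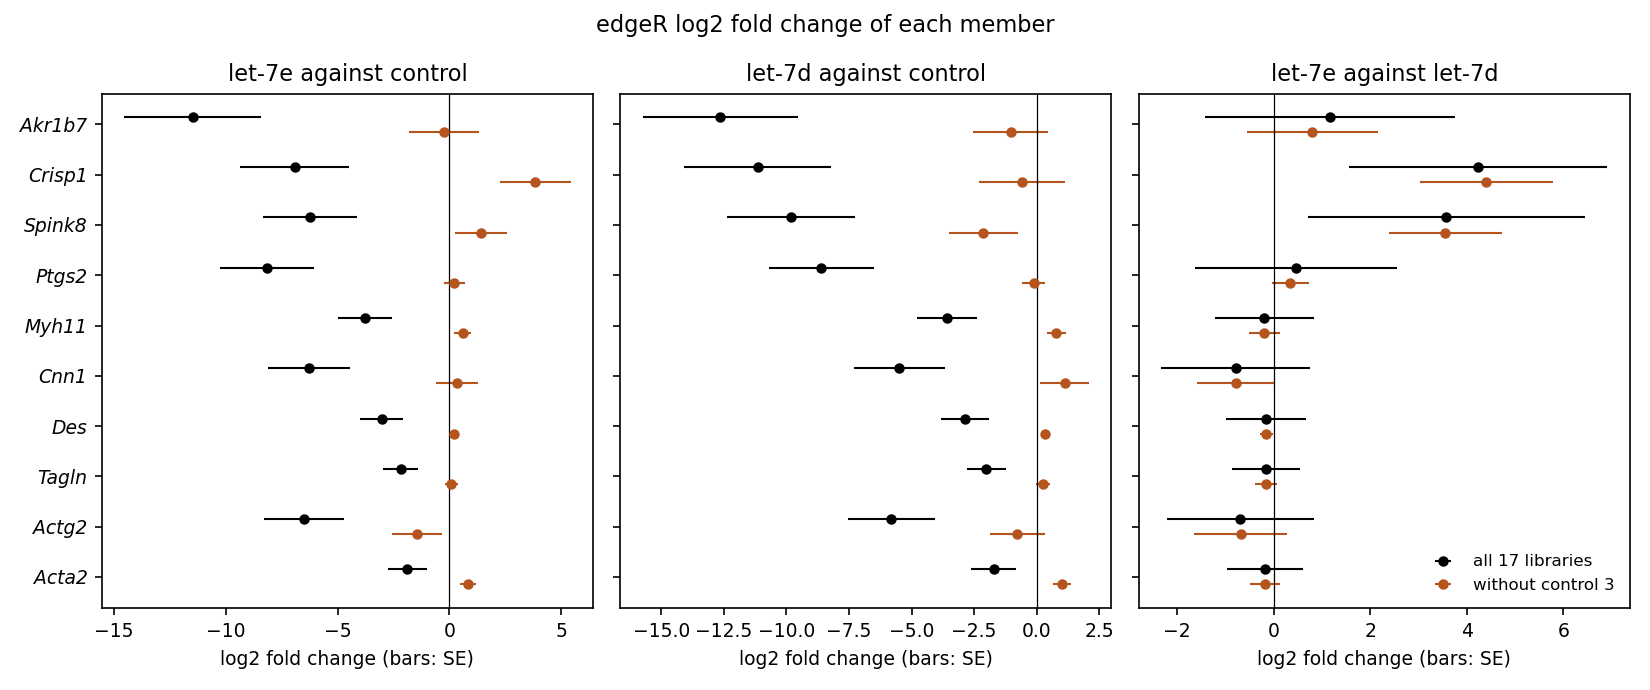
Log2 fold change of each member with its SE (bars) for let-7e against control, let-7d against control and let-7e against let-7d, from all 17 libraries (black) and without control 3 (brown); each panel has its own horizontal scale. Against control the black points lie between -12.65 and -1.70 and the brown points between -2.13 and 1.42, with Crisp1 at 3.83 for let-7e as the exception.

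Let-7e against let-7d holds no control library, and control 3 enters it only through the shared estimate of spread. Crisp1 averaged 4.98 ± 8.02 CPM in let-7e libraries and 0.259 ± 0.303 CPM in let-7d libraries (SD, n = 6 each), and Spink8 averaged 1.21 ± 1.97 CPM in let-7e and 0.104 ± 0.1003 CPM in let-7d libraries. Their log2 fold changes were 4.24 (SE 2.68, edgeR adjusted p = 0.802) and 3.58 (SE 2.88, edgeR adjusted p = 0.878). Let-7e 3 and let-7e 1 were well above every let-7d library for both genes. Let-7e 5 was above them only narrowly, with 25 counts of Crisp1 against 19 in let-7d 2, and 6 of Spink8 against 5 there. The other 3 let-7e libraries overlapped the let-7d libraries for both genes. Epcam, an epithelial surface marker chosen after its values were seen, followed them only in part. It stood at 6.70 CPM in let-7e 1, 0.817 CPM in let-7e 3 and 0.127 CPM in let-7e 5, against a median of 0.580 CPM. It stood at 97.6 CPM in let-7d 1, 34.5 CPM in let-7d 5 and 12.95 CPM in let-7d 3, where Crisp1 was at 0.146, 0.0624 and 0.0419 CPM. Cuzd1 and Adam7, also named after their values were seen, stood at 11.4 and 6.37 CPM in let-7e 3. In let-7e 1 they stood at 14.8 and 3.48 CPM, against medians of 0.301 and 0.0738 CPM. Both were higher still in let-7d 1 (183 and 17.6 CPM) and let-7d 5 (43.1 and 8.05 CPM). The source of these transcripts was not tested. Without let-7e 3 the value for Crisp1 was 2.83, and without let-7e 1 it was 3.49, while Spink8 fell under the filter on low counts without either. Of the muscle members all 6 were lower with let-7e, from -0.79 (SE 1.55) for Cnn1 to -0.15 (SE 0.83) for Des, and without let-7d 5 the sign of 5 of them turned, Acta2 being the exception.

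By edgeR 0 of 10 members passed in let-7e against let-7d, where 0 of 16452 genes did (0%), 1097 stood at an unadjusted p under 0.05 (6.67%) and DESeq2 called 14. With control 3 left out of the estimate of spread, SEs were smaller, at 1.39 for Crisp1 (log2 fold change 4.41, unadjusted p = 0.00625 by edgeR, adjusted p = 0.490) and 1.17 for Spink8 (3.55, unadjusted p = 0.00823 by edgeR, adjusted p = 0.490). These were the 2 of 10 members at an unadjusted p under 0.05, against 1387 of all genes (8.43%).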

How the data were processed

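Whole-number read counts per Ensembl gene were deposited for the libraries of whole eWAT. Reads had been mapped by the authors with STAR (genome build GRCm38.p6) per the submitters' processing notes, and the counting tool, its strandedness and the threshold of the CPM filter named by the authors are not given in the sources used here. A second deposited table was not used. Of 18 samples described, 17 were analysed. Symbols came from GENCODE M21 (16438 of 16452 genes). The members and gene lists were chosen with earlier results of these data known. Named were all 10 members, up to 4 genes a list by CPM in control 3, 5 genes most like each class, and 5 with the highest CPM among those 16-fold over the median; some items are not reported here.

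Counts were scaled with TMM, and edgeR 4.0.16 (R 4.3.3) quasi-likelihood tests with group and identifier series as terms ran on all 17 libraries. P-values are two-sided, adjusted by Benjamini-Hochberg over 16452 genes at a threshold of 0.05. SE is the fold change over the root of F. The common biological coefficient of variation was 0.36. filterByExpr removed 0 genes. Tested on simulated data over 16452 genes, the fit recovered 72% of 2-fold and 87% of 4-fold changes with let-7e against control (8 false calls), 68% and 93% with let-7d against control (8), and 76% and 91% between both let-7 groups (12). These rates are for planted changes over all genes and do not give the power for the members. No 2 libraries of a group agreed within counting noise (chi-square over degrees of freedom at least 14.6). Alternatives were DESeq2 1.42.0 size factors and its Wald test, other filters, the replicate block, no series term, the 13 lettered libraries, libraries left out, and for control 3 other scalings, the median of the other controls and a prior count of 0.5.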

Additional observations from a re-analysis of the deposited data

Results flagged for a closer look

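The members were picked for their level in control 3, so that its distance from the other controls was fixed by the choice, and the values are a description with no test. On the log2 CPM scale the gap of control 3 to the nearest control, as a share of the range, was above the limit used to mark a sample for 6 members: Crisp1 at 2927 CPM, Spink8 at 493.9 CPM, Ptgs2 at 1116 CPM, Myh11 at 5203 CPM, Des at 1451 CPM and Tagln at 173.4 CPM. It was not above the limit for Akr1b7, Cnn1, Actg2 and Acta2. Among the 6 let-7d libraries, let-7d 5 was marked by Dixon's 95% limit for Tagln, at 17.91 CPM. Chance alone marks about 1 in 20 groups.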

How the results depend on the processing

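The count of genes passing was 0 in each comparison with every library left out in turn (0 to 0) and under every other setting run except the DESeq2 Wald test. That test called 15 genes with let-7e and 10 with let-7d, each against control, and 14 between let-7e and let-7d.

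Leaving out each library in turn gave, for let-7e against control, log2 fold changes from -10.07 to 3.83 for Crisp1, -6.55 to 1.42 for Spink8, -8.49 to 0.23 for Ptgs2, -4.10 to 0.60 for Myh11, -6.64 to 0.33 for Cnn1, -3.32 to 0.20 for Des, -2.45 to 0.093 for Tagln and -2.19 to 0.83 for Acta2. The ranges for let-7d against control were -4.18 to 0.79 for Myh11, -7.17 to 1.12 for Cnn1, -3.16 to 0.35 for Des, -2.33 to 0.25 for Tagln and -2.01 to 1.01 for Acta2. Every positive end is the fit without control 3. Akr1b7 and Actg2 kept a negative sign in both comparisons, as did Crisp1, Spink8 and Ptgs2 for let-7d. Spink8 had no fit without let-7e 1 or without let-7e 3, where it fell under the filter on low counts. For let-7e against let-7d the ranges were -0.77 to 1.65 for Akr1b7, turning without let-7e 1, and, turning without let-7d 5, -0.33 to 0.29 for Myh11, -1.08 to 0.59 for Cnn1, -0.21 to 0.0067 for Des, -0.25 to 0.10 for Tagln and -1.08 to 0.94 for Actg2.

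Without control 3, control 6, let-7d 1 and let-7d 5 together, the sign turned for let-7e against control in Crisp1 (3.504), Spink8 (1.09), Myh11 (0.41), Des (0.14) and Acta2 (0.89). It turned in Des (0.095) and Acta2 (0.94) with let-7d against control, and between let-7e and let-7d in Myh11 (0.42), Cnn1 (1.43), Des (0.050), Tagln (0.22) and Actg2 (1.77). With lettered libraries only, Ptgs2 turned to -0.13 for let-7e against let-7d. The cause of these turns was not tested beyond the libraries left out. Over all settings the members' adjusted p by edgeR was at least 0.119.

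Replicate numbers showed no clear pairing of the samples, although this check cannot exclude it. Of 16 same-numbered pairs 6 correlated above 0.1, over a range of -0.33 to 0.50. The highest was let-7e 1 with let-7d 1, both in the all-digit series. In 9 of 32 checks of a sample against another group its own number gave the best correlation. With the replicate block 0 genes passed in each comparison, and Actg2 turned to 0.21 for let-7e against let-7d. The number of genes high in control 3 was 529, with 531 under DESeq2 size factors, 544 under plain totals and 663 against the median of the other controls.

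Depth limits the duct members outside control 3, where many values rest on under 20 counts.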
